A study of Mus musculus with 30 samples.

Results

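The nuclear genes that encode the subunits of the mitochondrial respiratory chain and ATP synthase were followed in 3T3-L1 preadipocytes, a mouse fibroblast line that can be driven to form fat cells, over the 3 days before differentiation starts. Members were all genes of the count table whose symbol begins with Ndufa, Ndufb, Ndufc, Ndufs, Ndufv, Uqcr, Cox4i, Cox5, Cox6, Cox7, Cox8 or Atp5, together with Sdha to Sdhd, Cyc1 and Cycs, without Ndufaf assembly factors and without pseudogenes. These were 79 of 12016 genes: 36 of complex I, 4 of complex II, 9 of complex III, 12 of complex IV, 17 of complex V, and Cycs, which encodes cytochrome c. Ndufa4 was counted with complex IV, the complex to which its product is now assigned, and Cyc1 with complex III. Atp5s, kept by its symbol, encodes a coupling factor and not a structural subunit. Of 113 genes that matched the symbols, 12 assembly factors and 13 pseudogenes were left out, and 9 protein-coding genes were too low for the count table. Membership went by symbol and by the low-count limit of the deposited table, a CPM (reads scaled to the total of the library) of at least 1 in 20 or more of the 30 libraries.

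Cells were transfected 3 days before differentiation, while sub-confluent, with 50 nM Kdm5c siRNA or a non-targeting scramble siRNA, and mRNA was collected 24, 48 and 72 h later, on days −2, −1 and 0. Each of the 6 groups had 5 libraries: Kdm5c siRNA on days −2, −1 and 0, and scramble siRNA on days −2, −1 and 0. KDM5C is an X-linked demethylase that removes methyl groups from lysine 4 of histone H3. The labels do not say whether the 5 libraries came from separate cultures, so p-values measure the spread between libraries, which may be technical. Day and time since transfection rose together in this design and cannot be told apart.

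Complexes I and II feed electrons from NADH and succinate to ubiquinone, complex III passes them to cytochrome c, complex IV hands them to oxygen, and complex V, the ATP synthase, uses the proton gradient that results. Most subunits are encoded in the nucleus and imported, and a few core subunits of complexes I, III, IV and V are encoded by mitochondrial DNA. Transcription factors of the NRF1, GABP, ERR and YY1 families, with the PGC-1 coactivators, are known regulators of the nuclear genes. Mitochondrial content is known to grow when 3T3-L1 cells become fat cells, a stage later than the days measured here.

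Libraries held 25217905 to 33725717 reads, and 3 reads correspond to 0.089 to 0.119 CPM. Kdm5c itself was at 25.5 ± 1.29, 35.6 ± 3.57 and 53.3 ± 2.37 CPM on days −2, −1 and 0 after Kdm5c siRNA, against 157 ± 1.75, 189 ± 2.90 and 212 ± 4.84 CPM after scramble (SD, n = 5 each), with no overlap on any day. The first principal component of all genes, 83.2% of the variance, followed the day. Along it Kdm5c siRNA libraries lay at −4.16 to 2.15 on day −1 and 38.72 to 43.79 on day 0, against 2.37 to 8.39 and 42.64 to 50.62 for scramble. On day −1 the scramble libraries split along it, with replicates 1, 2 and 3 between 7.79 and 8.39 and replicates 4 and 5 between 2.37 and 2.78. Counts of that day are therefore also given without replicates 1, 2 and 3, as are the calls that this ends among the members named. With fewer scramble libraries a call can be lost although the log2 difference stays, so the difference is given beside it. The replicates left out lay farther along the component from the Kdm5c siRNA libraries of that day than replicates 4 and 5, so the choice is one-sided. Leaving out replicates 4 and 5 together instead was not run. Of 10 preadipocyte and fibroblast markers 9 averaged at least 1 CPM in every group. The summed level of the 10 was 26357 to 28003 CPM on day −2 and 34413 to 38740 CPM on day 0 after Kdm5c siRNA. After scramble it was 24922 to 25787 and 36320 to 39905 CPM. Most of this sum came from the collagen genes Col1a1 and Col1a2, at 10592 and 11085 CPM on day −2 after Kdm5c siRNA. Among 7 markers of mature fat cells only Fabp4, a fatty acid binding protein, reached 1 CPM in any group, and none of 5 brown fat markers did. Fabp4 averaged 11.45, 24.1 and 32.2 CPM on days −2, −1 and 0 after Kdm5c siRNA, against 11.3, 24.3 and 26.2 CPM after scramble. The part of fat cell formation in the members' values was not tested.

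Upstream sequences are shown for the member that fell most over time (Cycs), the member of complex IV that fell most (Cox5a), the member that rose most (Ndufv3) and the member that differed most between the siRNAs (Cox7a2l). Each runs 5′ to 3′ on the gene's own strand from 250 bases before to 50 bases after the RefSeq start, on the build GRCm38.p6. Letters in capitals mark the NRF1 site searched, GCATGCGC. The windows are chr6:50566520-50566819 on the minus strand for Cycs, chr9:57520982-57521281 on the plus strand for Cox5a, chr17:31519865-31520164 on the plus strand for Ndufv3 and chr17:83514284-83514583 on the minus strand for Cox7a2l.
Cycs: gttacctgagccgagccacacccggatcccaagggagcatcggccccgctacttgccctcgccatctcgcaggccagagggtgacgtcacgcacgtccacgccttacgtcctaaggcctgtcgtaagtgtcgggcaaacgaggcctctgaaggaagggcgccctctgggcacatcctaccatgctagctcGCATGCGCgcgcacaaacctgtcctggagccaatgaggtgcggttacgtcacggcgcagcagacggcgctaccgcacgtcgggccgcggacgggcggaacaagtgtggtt
Cox5a: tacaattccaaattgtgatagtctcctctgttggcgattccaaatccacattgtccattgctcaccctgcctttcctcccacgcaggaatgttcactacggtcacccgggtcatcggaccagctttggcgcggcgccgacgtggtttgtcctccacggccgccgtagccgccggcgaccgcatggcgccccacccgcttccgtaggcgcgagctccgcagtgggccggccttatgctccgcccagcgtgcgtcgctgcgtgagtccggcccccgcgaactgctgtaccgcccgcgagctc
Ndufv3: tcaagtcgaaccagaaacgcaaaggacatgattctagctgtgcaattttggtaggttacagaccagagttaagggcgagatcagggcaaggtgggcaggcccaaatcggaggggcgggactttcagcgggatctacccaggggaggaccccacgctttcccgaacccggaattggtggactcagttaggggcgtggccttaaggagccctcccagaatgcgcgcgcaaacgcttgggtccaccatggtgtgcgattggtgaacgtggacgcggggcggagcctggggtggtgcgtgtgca
Cox7a2l: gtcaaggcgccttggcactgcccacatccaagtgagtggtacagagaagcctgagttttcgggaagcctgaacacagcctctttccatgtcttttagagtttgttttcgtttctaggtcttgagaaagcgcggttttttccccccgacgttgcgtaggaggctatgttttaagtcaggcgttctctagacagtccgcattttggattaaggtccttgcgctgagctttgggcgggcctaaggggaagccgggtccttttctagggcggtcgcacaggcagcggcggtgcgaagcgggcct

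In these windows the Cycs promoter held the NRF1 site 60 bases before the start, and none of the 4 motifs searched was found in the windows of Cox5a, Ndufv3 and Cox7a2l. The Cox7a2l window lies inside the gene as annotated in GENCODE M21, whose 5′ end is at 83517330. Sequence before that end was not searched. RefSeq promoters matched 64 of the 79 members by symbol, with 69 windows of 300 bases. The NRF1 site, GCATGCGC or its reverse complement GCGCATGC, stood in 11 of these windows, 15.9%, against 2.7% of all 32851 promoters of the table. The ETS motif bound by GABP, CCGGAAG or CTTCCGG, stood in 16 windows, 23.2%, against 8.9%. The YY1 motif, AAGATGGC or GCCATCTT, stood in 9 windows, 13%, against 2.7%, with 7 of them among the 34 windows of complex I and 2 among the 16 of complex V. The ERR motif, TCAAGGTCA or TGACCTTGA, stood in 2 windows, 2.9%, against 0.4%. The ETS and YY1 motifs can share the letters AAG, so 1 stretch can hold both, which happened in 0 of the 69 windows and in 1 of all 32851. All members passed the low-count limit, while the 32851 promoters were not limited to such genes, so the sets compared are not alike. A match describes a sequence and not a bound site.

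Per base of exon, the most abundant members were subunits of complexes IV and V. Cox8a, a small subunit of complex IV, averaged 237 RPKM (CPM per kilobase of exon) over the 30 libraries. Cox6a1 followed at 207.7, and the genes of the beta and alpha subunits of ATP synthase, Atp5b and Atp5a1, stood at 201.8 and 171 RPKM. Cox6b1 was at 144.7, Ndufa4 at 129.2 and Cox4i1 at 103.7 RPKM. The lowest were Ndufb2 at 1.77, Atp5s at 2.00, Ndufb4 at 2.59 and Atp5l at 2.66 RPKM, levels that rest on the summed exons of all annotated transcripts and so understate genes with long minor transcripts. Together the members took 0.70 ± 0.0119%, 0.664 ± 0.0080% and 0.573 ± 0.0068% of the reads on days −2, −1 and 0 after Kdm5c siRNA, against 0.724 ± 0.0071%, 0.691 ± 0.0070% and 0.589 ± 0.0069% after scramble (SD, n = 5 each). The share was smaller after Kdm5c siRNA in all libraries of days −2 and −1, and the groups overlapped on day 0. These are shares of mRNA, so in bulk samples fewer cells that express a gene and less RNA per cell cannot be told apart.

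**Figure D1:**
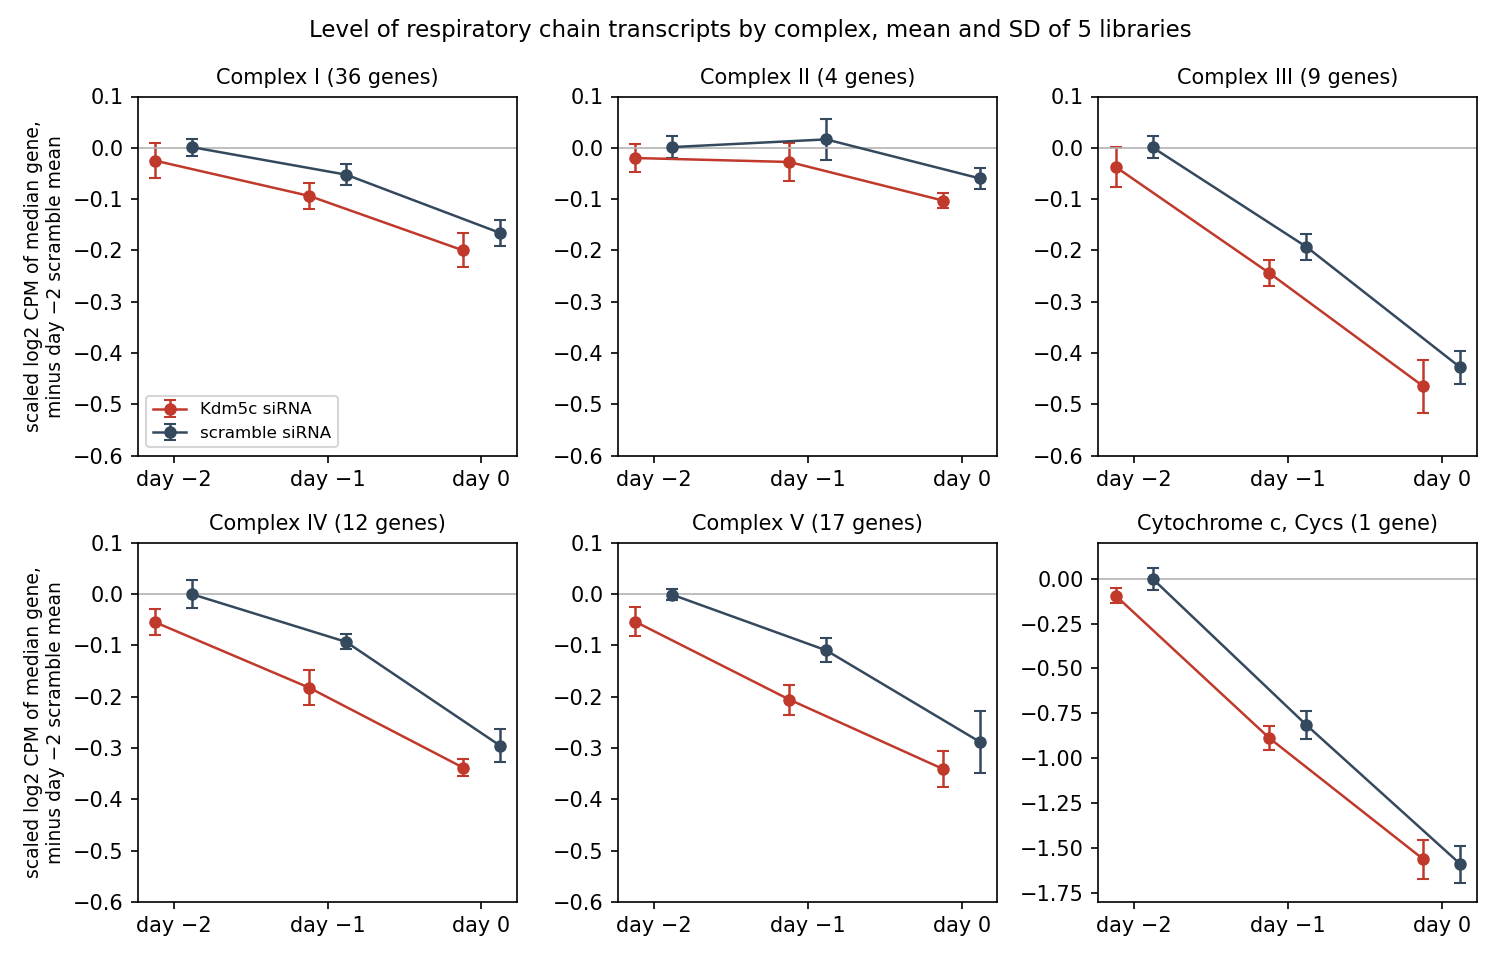
Median log2 CPM (after TMM scaling) over the genes of each complex, relative to the scramble mean on day −2, by day; points are means and bars SDs of 5 libraries, Kdm5c siRNA in red and scramble in dark blue. Complex III fell by 0.43 and complex IV by 0.30 by day 0 in scramble cells, complex II by 0.06, and Cycs, on its own axis range, by 1.59.

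In scramble cells most respiratory chain transcripts fell between day −2 and day 0. Of 79 members 58 fell, 11 rose and 10 were not called at an adjusted p under 0.05 in edgeR's quasi-likelihood test, adjusted over all 12016 genes by Benjamini-Hochberg, and ± after a log2 change is its standard error. Of all genes tested 43.6% were called lower and 44.6% higher in that comparison. The median member changed by −0.26 on the log2 scale, against 0.00 for all genes. Between days −1 and −2, 42 members fell and 13 rose, against 39.3% and 39.4% of all genes. Between days 0 and −1, 54 fell and 8 rose, against 37.7% and 36.6%. At both steps 39 members were lower, 49.4%, and 6 were higher, 7.6%, against 27.7% and 26.6% of all genes. Without scramble replicates 1, 2 and 3 of day −1, 41 fell and 11 rose at the earlier step, against 35.5% and 35.5% of all genes. At the later one 47 fell and 8 rose, against 35.3% and 33.9%. The earlier step depended on scaling: with library totals alone 30 members fell and 21 rose, against 32.2% and 46.6% of all genes, and the median over all genes was then 0.07 and that of the members −0.03.

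Members were also shorter than most genes, and short genes fell as a class. Among the 540 tested genes with under 1000 bases of exon the median change from day −2 to day 0 was −0.26, the same to 2 decimals as for the 17 members in that class. Among the 10207 genes of 2000 bases and over the median was 0.04, against −0.29 for the 32 members of that length. The part of transcript length in the time course was not tested further.

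Cycs, the electron carrier between complexes III and IV (ENSMUSG00000063694, chr6:50562563-50566538 on the minus strand of GRCm38, as annotated in GENCODE M21), fell most. Its level was 92.2, 92.4, 89.8, 94.0 and 100.2 CPM on day −2, 52.2, 54.8, 55.3, 59.7 and 58.1 CPM on day −1 and 34.7, 28.5, 32.4, 31.1 and 33.3 CPM on day 0 in the 5 scramble libraries. No library of a later day reached any of an earlier day, and day 0 stood at 33.3% of day −2 (log2 change −1.59 ± 0.05, adjusted p = 2.3e-27). The fall was spread over both steps, at −0.81 and −0.77.

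All 9 members of complex III fell. Cyc1, the subunit that passes electrons to cytochrome c (chr15:76343523-76346260, plus strand), was at 112, 111, 117, 116 and 114 CPM on day −2, 82.8, 92.5, 87.6, 86.0 and 85.5 CPM on day −1 and 69.4, 60.4, 66.1, 61.5 and 58.8 CPM on day 0. The 3 days did not overlap (day 0 over day −2 −0.89 ± 0.03, adjusted p = 4.86e-26). Uqcrfs1, the Rieske iron-sulfur subunit, fell by 0.67 and Uqcrc1, a core subunit of the matrix arm, fell by 0.65 (adjusted p = 1.26e-19 and 7.12e-27). The other core subunit, Uqcrc2, changed by −0.36. Among the small subunits Uqcrq changed by −0.50, Uqcr11 by −0.43, Uqcrb by −0.40, Uqcr10 by −0.26 and Uqcrh, the hinge protein that docks cytochrome c, by −0.23. Cyc1, Uqcrfs1 and Uqcrc1 thus fell most, while the core subunit Uqcrc2 fell less than the small subunits Uqcrq, Uqcr11 and Uqcrb.

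In complex IV 11 of 12 members fell and 1 rose. Cox5a, which lies on the matrix side of the complex, was at 79.2, 72.1, 90.7, 90.9 and 88.7 CPM on day −2, 68.5, 72.9, 69.8, 56.5 and 55.2 CPM on day −1 and 59.2, 40.8, 42.3, 45.6 and 42.0 CPM on day 0. Its libraries spread widely within a day and overlapped between neighbouring days, but not between day 0 and day −2. Its log2 change from day −2 to day 0 was −0.91 ± 0.11, adjusted p = 1.17e-08. Cox7a2, the widely expressed isoform of its subunit, changed by −0.58 ± 0.03, adjusted p = 2.37e-21. Cox5b changed by −0.55, Cox7b by −0.39, Cox7c by −0.39, Cox6b1 by −0.30, Cox6a1 by −0.28, Ndufa4 by −0.25 and Cox8a by −0.23, all called. Cox6c, at −0.16, and Cox4i1, the regulatory subunit that binds ATP, at −0.09, fell least (adjusted p = 1.84e-06 and 0.000693).

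Cox7a2l (ENSMUSG00000024248, chr17:83501918-83517330 on the minus strand) was the exception in complex IV. It encodes a relative of Cox7a2 that is known to join complexes III and IV into supercomplexes. Its 5 scramble libraries held 44.9, 42.9, 45.8, 43.7 and 45.1 CPM on day −2, 57.2, 56.2, 56.9, 55.4 and 55.0 CPM on day −1 and 60.7, 65.9, 65.5, 65.6 and 68.9 CPM on day 0. Every later day lay above every earlier day, with a log2 change of 0.52 ± 0.03, adjusted p = 1.58e-18 while Cox7a2 fell by 0.58.

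In complex V 12 of 17 members fell, 2 rose and 3 were not called. Atp5b, the catalytic beta subunit and the member with the most reads, was at 1069, 1066, 1057, 1064 and 1062 CPM on day −2, 877, 887, 886, 909 and 903 CPM on day −1 and 677, 632, 638, 642 and 649.9 CPM on day 0. The days did not overlap (−0.75 ± 0.02, adjusted p = 6.76e-33). The alpha subunit gene Atp5a1 fell by 0.40, and Atp5c1 and Atp5d of the central stalk fell by 0.46 and 0.43 (adjusted p = 3.65e-25, 4.17e-22 and 1.29e-15). Atp5e, the small stalk subunit epsilon, was at 0.09 and was not called (adjusted p = 0.0517). Atp5f1 of the peripheral stalk fell by 0.56, while Atp5h of the same stalk was at −0.04 (adjusted p = 1.92e-24 and 0.228).

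The 3 genes for subunit c, which encode the same mature ring protein behind different import peptides, did not move together. Atp5g1 averaged 55.7 ± 1.31, 43.7 ± 3.16 and 35.1 ± 1.58 CPM on days −2, −1 and 0 in scramble cells, and Atp5g3 averaged 259.5 ± 4.40, 213 ± 5.42 and 165 ± 5.63 CPM (SD, n = 5 each). Atp5g2 averaged 35.9 ± 1.95, 38.9 ± 1.45 and 36.9 ± 0.671 CPM. From day −2 to day 0 Atp5g1 fell by 0.70 and Atp5g3 by 0.69 (adjusted p = 4.49e-21 and 3.45e-28), and Atp5g2 changed by 0.00 with a 95% interval of −0.06 to 0.07 (adjusted p = 0.924). Atp5s rose, with 3.05, 3.04, 3.11, 2.73 and 3.27 CPM on day −2, 3.75, 3.86, 4.10, 4.65 and 3.56 CPM on day −1 and 5.64, 7.08, 5.45, 5.64 and 6.50 CPM on day 0. It was the lowest member by CPM, day 0 lay above day −2 in all libraries, and the log2 change was 0.95 ± 0.10, adjusted p = 1.43e-11. Atp5l, the g subunit of the membrane part, changed by 0.15 ± 0.04, adjusted p = 0.00215.

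Complex I was mixed. Of 36 members 23 fell, 7 rose and 6 were not called, and the share of reads in the complex was 0.176, 0.183 and 0.172% on days −2, −1 and 0 in scramble cells. Ndufv3, an accessory subunit beside the NADH-oxidising flavoprotein (chr17:31520115-31531331, plus strand), held 38.7, 38.3, 36.3, 36.6 and 36.1 CPM on day −2, 70.1, 72.1, 73.0, 67.3 and 65.0 CPM on day −1 and 85.9, 97.8, 93.9, 98.0 and 99.6 CPM on day 0. The days did not overlap (1.31 ± 0.04, adjusted p = 6.75e-26), and it was the member that rose most. Its partner Ndufv1, the flavoprotein itself, changed by −0.09 and Ndufv2 by −0.27 (adjusted p = 0.0025 and 5.22e-13).

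Other risers of complex I included accessory subunits. Ndufa6 averaged 33.9 ± 1.36, 42.1 ± 1.54 and 53.6 ± 1.38 CPM on days −2, −1 and 0 (SD, n = 5 each) and rose by 0.62, and Ndufa13, also known as a cell death regulator, rose by 0.35 (adjusted p = 2.6e-21 and 7.05e-14). Part of the Ndufa13 exons, 30%, lies opposite an exon of Tssk6, and whether the counting used strand is not given in the sources used here. Ndufa7, Ndufa3 and Ndufa1 rose by 0.22, 0.17 and 0.09. The fallers were led by the accessory subunits Ndufa5 at −0.61 ± 0.03, adjusted p = 9.75e-22, Ndufb8 at −0.50 ± 0.03, adjusted p = 2.71e-19 and Ndufa12 at −0.46 ± 0.04, adjusted p = 9.98e-16. Among core subunits encoded in the nucleus, Ndufs1 and Ndufs7 fell by 0.29 and 0.24, and Ndufs3 and Ndufs8 were at −0.01 and −0.05, not called.

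Complex II, which also works in the TCA cycle, divided along its own 4 genes. Sdhd, a membrane anchor, averaged 78.7 ± 1.34, 67.0 ± 3.11 and 55.5 ± 0.911 CPM on days −2, −1 and 0 in scramble cells (SD, n = 5 each), and the other anchor, Sdhc, averaged 94.4 ± 2.31, 104 ± 2.28 and 104 ± 1.29 CPM. Sdhd fell by 0.54 and Sdhc rose by 0.10 (adjusted p = 3.56e-21 and 0.000749). Sdhb, the iron-sulfur subunit, fell by 0.09, and Sdha, the flavoprotein, was at −0.03 (adjusted p = 0.00452 and 0.202). The ranges of Sdhb on day 0 and day −2 overlapped, and its call was lost in 4 alternatives that scale the libraries otherwise (adjusted p up to 0.302). The call of Sdhc was lost without a filter on low values (adjusted p = 0.129).

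**Figure D2:**
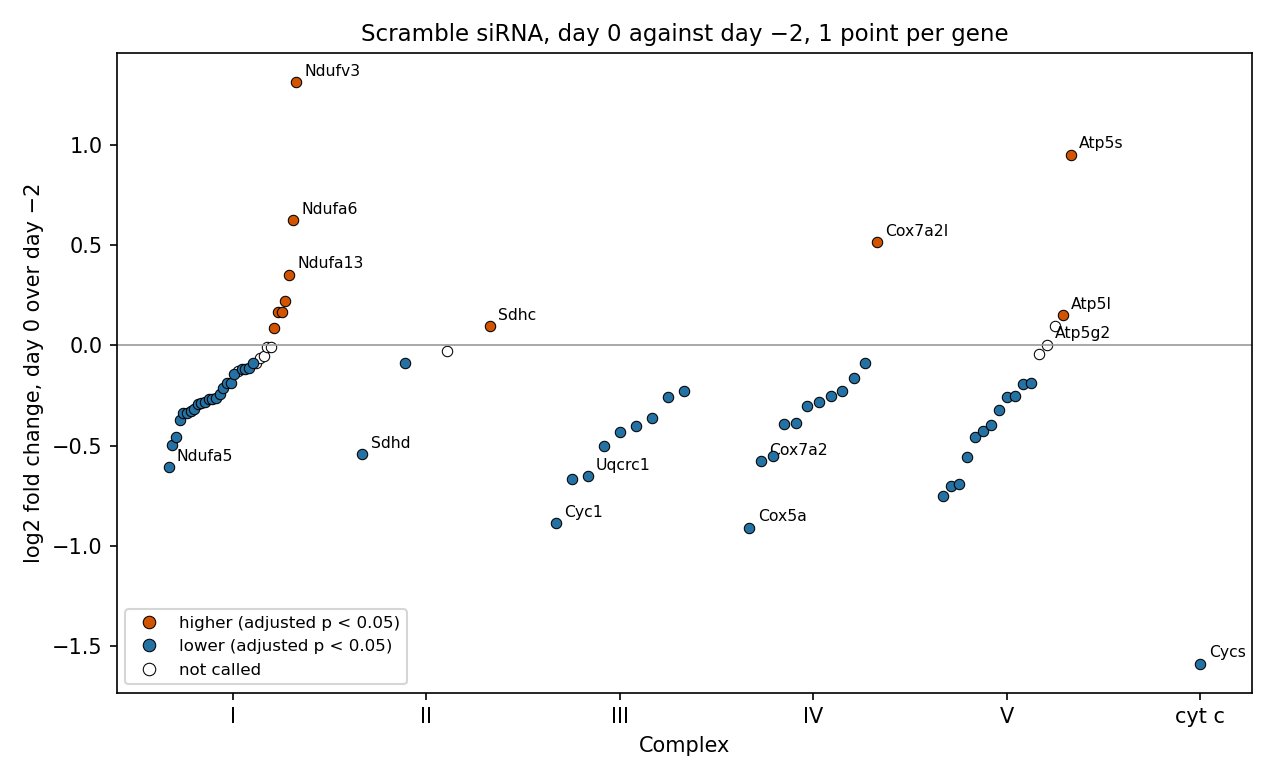
Log2 fold change of each member in scramble cells, day 0 over day −2, by complex and ordered by size within each; filled points passed the test at an adjusted p under 0.05. All 9 members of complex III lie below 0, and Ndufv3 (1.31), Atp5s (0.95), Ndufa6 (0.62) and Cox7a2l (0.52) lie highest.

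Differences called after Kdm5c siRNA were small, and on each day more members were called lower than higher. The median size of the called log2 differences was 0.112, 0.105 and 0.112 on days −2, −1 and 0. Over all genes called it was 0.146, 0.161 and 0.162. On day −2, 12 of 79 members were lower and 1 was higher after Kdm5c siRNA, against 11.8% of all genes called lower and 11.2% called higher. On day −1, 20 were lower and 1 was higher, against 16.8% and 18.8%. On day 0, 14 were lower and 2 were higher, against 15.7% and 19.2%. As shares of the members, 15.2, 25.3 and 17.7% were lower and 1.3, 1.3 and 2.5% were higher on days −2, −1 and 0. The share called lower thus lay near the background on days −2 and 0, and the share called higher lay under it on all 3 days. Without scramble replicates 1, 2 and 3 on day −1, an alternative added with the data in view, 12 members were lower and 0 were higher in edgeR's quasi-likelihood test, against 10.7% and 10.6% of all genes. The median member was at −0.04, −0.04 and −0.02 on the log2 scale on the 3 days, against 0.00 for all genes each day.

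In complex V 6, 8 and 5 of 17 members were lower on days −2, −1 and 0. Complex IV had 3, 5 and 2 of 12, complex III 1, 2 and 1 of 9, complex I 2, 4 and 5 of 36, and complex II 0, 1 and 1 of 4. Cycs was called on no day (adjusted p = 0.0948, 0.207 and 0.71). Of the 79 members 46 were called on no day, 16 were lower on a single day, 9 on 2 days and 4 on all 3, 4 were higher on a single day, and none was called in both directions. Of all genes 45.7% were called on no day, 13.6, 7.9 and 4.9% were lower on 1, 2 and 3 days, and 14.5% were higher on a single day. On day −2 the genes richest in GC were lower more often than the poorest: 22.9% of the 10% of genes highest in exon GC and 2.7% of the 10% lowest were called lower, and 10 and 7 members lay among these genes. On day −1 the shares called lower were 22.9 and 9.9%, and on day 0 they were 17.1 and 13.2%. Called higher were 5.5 and 17.8% on day −2, 16.2 and 22.8% on day −1 and 19.6 and 15.1% on day 0. The median GC content was 50.0% for the members and 49.5% for all genes. The part of GC content in the members' calls was not tested.

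Cox7a2l had the largest difference on every day. On day −2 it held 32.1, 30.5, 33.0, 32.4 and 29.8 CPM after Kdm5c siRNA, against 44.9, 42.9, 45.8, 43.7 and 45.1 CPM after scramble. On day −1 it held 38.9, 37.9, 37.5, 40.8 and 38.5 CPM after Kdm5c siRNA, against 57.2, 56.2, 56.9, 55.4 and 55.0 CPM after scramble. On day 0 it held 47.2, 51.6, 49.1, 49.6 and 49.8 CPM after Kdm5c siRNA, against 60.7, 65.9, 65.5, 65.6 and 68.9 CPM after scramble. The 2 groups did not overlap on any day, and Kdm5c siRNA cells stood 28.8, 30.9 and 24.2% lower on days −2, −1 and 0. The log2 differences were −0.49 ± 0.04, adjusted p = 1.72e-14 on day −2, −0.53 ± 0.03, adjusted p = 1.3e-16 on day −1 and −0.40 ± 0.03, adjusted p = 3.38e-13 on day 0. The Kdm5c siRNA libraries of each later day lay above those of the earlier days, and on day 0 they lay above the scramble libraries of day −2. Its closest relative in the set, Cox7a2, was lower on day −1 (−0.12 ± 0.03, adjusted p = 0.00104) and was not called on days −2 and 0 (95% intervals of the log2 difference −0.12 to 0.00 and −0.05 to 0.07).

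Cox8a was lower on all 3 days, and its difference on day 0 was the larger. On day −2 it held 145, 141, 151, 149 and 149.9 CPM after Kdm5c siRNA, against 166, 156, 158, 158 and 159.7 CPM after scramble, and on day 0 119, 115, 127, 126 and 113 CPM, against 149.7, 131, 136, 145 and 138 CPM. On day −1 it averaged 147 ± 3.73 CPM after Kdm5c siRNA and 167 ± 4.28 CPM after scramble (SD, n = 5 each). The groups overlapped on no day, with log2 differences of −0.11 ± 0.03, adjusted p = 0.00553 on day −2, −0.18 ± 0.03, adjusted p = 6.47e-06 on day −1 and −0.22 ± 0.03, adjusted p = 2.94e-07 on day 0. Between day 0 and day −2 the difference itself changed by −0.11, which did not pass the test (adjusted p = 0.0842). Ndufa4 was lower on day −1 (−0.10 ± 0.02, adjusted p = 0.000731), Cox6c on day −1 (−0.09 ± 0.03, adjusted p = 0.0161), and Cox4i1 on day −2 (−0.06 ± 0.02, adjusted p = 0.0432, with overlapping libraries). Cox6c was at −0.07 and an adjusted p of 0.197 without scramble replicates 1, 2 and 3 of day −1.

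Atp5mpl, which encodes a small proteolipid bound to ATP synthase, was the member of complex V with the largest called difference on days −1 and 0. On day −1 it held 30.9, 30.3, 28.1, 29 and 28.9 CPM after Kdm5c siRNA, against 34.1, 35.8, 37.5, 34.6 and 33.2 CPM after scramble. It averaged 31.2 ± 2.16 CPM after Kdm5c siRNA on day −2, against 34.2 ± 0.850 CPM after scramble, and 27.3 ± 0.958 CPM on day 0, against 30.7 ± 0.668 CPM (SD, n = 5 each). The groups overlapped on day −2 only, and the log2 differences were −0.13 ± 0.04, adjusted p = 0.0152 on day −2, −0.25 ± 0.04, adjusted p = 2.15e-06 on day −1 and −0.17 ± 0.04, adjusted p = 0.0011 on day 0. Atp5f1 was lower on days −2 and −1 (−0.09 ± 0.02, adjusted p = 0.00414 and −0.11 ± 0.02, adjusted p = 0.000403). Atp5c1 and Atp5d of the central stalk were lower on day 0 (−0.10 ± 0.02, adjusted p = 0.00051 and −0.12 ± 0.03, adjusted p = 0.00324) and also on day −1 (adjusted p = 0.00119 and 0.0179).

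The genes of the alpha and beta subunits differed little. Atp5a1 averaged 547 ± 3.47 CPM on day −1 after Kdm5c siRNA and 576 ± 9.43 CPM after scramble (SD, n = 5 each), without overlap (−0.07 ± 0.02, adjusted p = 0.000479). Atp5b averaged 1022 ± 16.7 CPM on day −2 after Kdm5c siRNA and 1064 ± 4.45 CPM after scramble, also without overlap (−0.05 ± 0.02, adjusted p = 0.0367). Atp5j, part of the peripheral stalk, was lower on day −2 (−0.10 ± 0.03, adjusted p = 0.00934). Its exons share 12.7% of their bases with the opposite strand of Gabpa, a subunit of GABP. Atp5e was lower on days −2 and −1 (−0.13 ± 0.05, adjusted p = 0.0315 and −0.12 ± 0.04, adjusted p = 0.0352), and Atp5l on days −1 and 0 (−0.16 ± 0.05, adjusted p = 0.00519 and −0.16 ± 0.05, adjusted p = 0.00498). Without scramble replicates 1, 2 and 3 of day −1 the calls of that day were lost for Atp5d, Atp5e and Atp5l. They were then at −0.07, −0.08 and −0.16 (adjusted p = 0.28, 0.414 and 0.063).

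In complex III, Uqcr10 was the member lower on all 3 days. It averaged 42.4 ± 2.79, 42.0 ± 0.521 and 36.6 ± 0.856 CPM on days −2, −1 and 0 after Kdm5c siRNA, against 46.7 ± 1.27, 45.2 ± 1.11 and 40.1 ± 1.59 CPM after scramble (SD, n = 5 each). The libraries overlapped on day −2 only, and the log2 differences were −0.14 ± 0.03, adjusted p = 0.00323 on day −2, −0.10 ± 0.03, adjusted p = 0.017 on day −1 and −0.13 ± 0.04, adjusted p = 0.00416 on day 0. Uqcrfs1 was lower on day −1 (−0.10 ± 0.04, adjusted p = 0.0352). Without scramble replicates 1, 2 and 3 of that day both calls were lost. Uqcr10 was then at −0.11 (adjusted p = 0.0846) and Uqcrfs1 at −0.07 (adjusted p = 0.364). Cyc1 was called on no day, with 95% intervals of −0.13 to −0.00, −0.05 to 0.08 and −0.07 to 0.06 on days −2, −1 and 0.

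In complex I, Ndufa13 averaged 71.8 ± 1.85 CPM after Kdm5c siRNA on day −2, against 78.4 ± 3.46 CPM after scramble (SD, n = 5 each), without overlap (−0.12 ± 0.03, adjusted p = 0.00339). It was lower on day −1 too (−0.10 ± 0.03, adjusted p = 0.00655), but was not called without scramble replicates 1, 2 and 3 (−0.05, adjusted p = 0.36). Ndufs8, a core iron-sulfur subunit, was lower on days −1 and 0 (−0.15 ± 0.03, adjusted p = 0.000483 and −0.11 ± 0.04, adjusted p = 0.0124). Ndufa2 was lower on day −1 (−0.13 ± 0.04, adjusted p = 0.00662), but was not called without those 3 libraries (−0.12, adjusted p = 0.0808). Ndufa6 averaged 49.4 ± 0.771 CPM after Kdm5c siRNA on day 0, against 53.6 ± 1.38 CPM after scramble (SD, n = 5 each), without overlap (−0.11 ± 0.03, adjusted p = 0.00428). Ndufa7 was lower on day −2 (−0.10 ± 0.04, adjusted p = 0.0408, with overlapping libraries). The largest called difference of complex I on day 0, at −0.21, belonged to a member outside those given here.

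The few members called higher after Kdm5c siRNA moved by small amounts. Ndufa12 held 47.7, 52.1, 46.9, 47.0 and 50.0 CPM on day −2 after Kdm5c siRNA, against 44.9, 46.1, 43.3, 46.2 and 45.4 CPM after scramble. The groups did not overlap (0.11 ± 0.03, adjusted p = 0.0115), and the call was lost without Kdm5c siRNA replicate 2 (adjusted p = 0.0674). Ndufv1 was higher on day −1 (0.07 ± 0.03, adjusted p = 0.0341), Ndufa5 on day 0 (0.09 ± 0.03, adjusted p = 0.0239) and Sdhd on day 0 (0.08 ± 0.03, adjusted p = 0.0404). Libraries overlapped for Ndufv1 and Sdhd, and Ndufv1 was at 0.09 and an adjusted p of 0.0519 without scramble replicates 1, 2 and 3. In complex II, Sdha was lower on days −1 and 0 (−0.06 ± 0.02, adjusted p = 0.0195 and −0.06 ± 0.02, adjusted p = 0.0419).

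**Figure D3:**
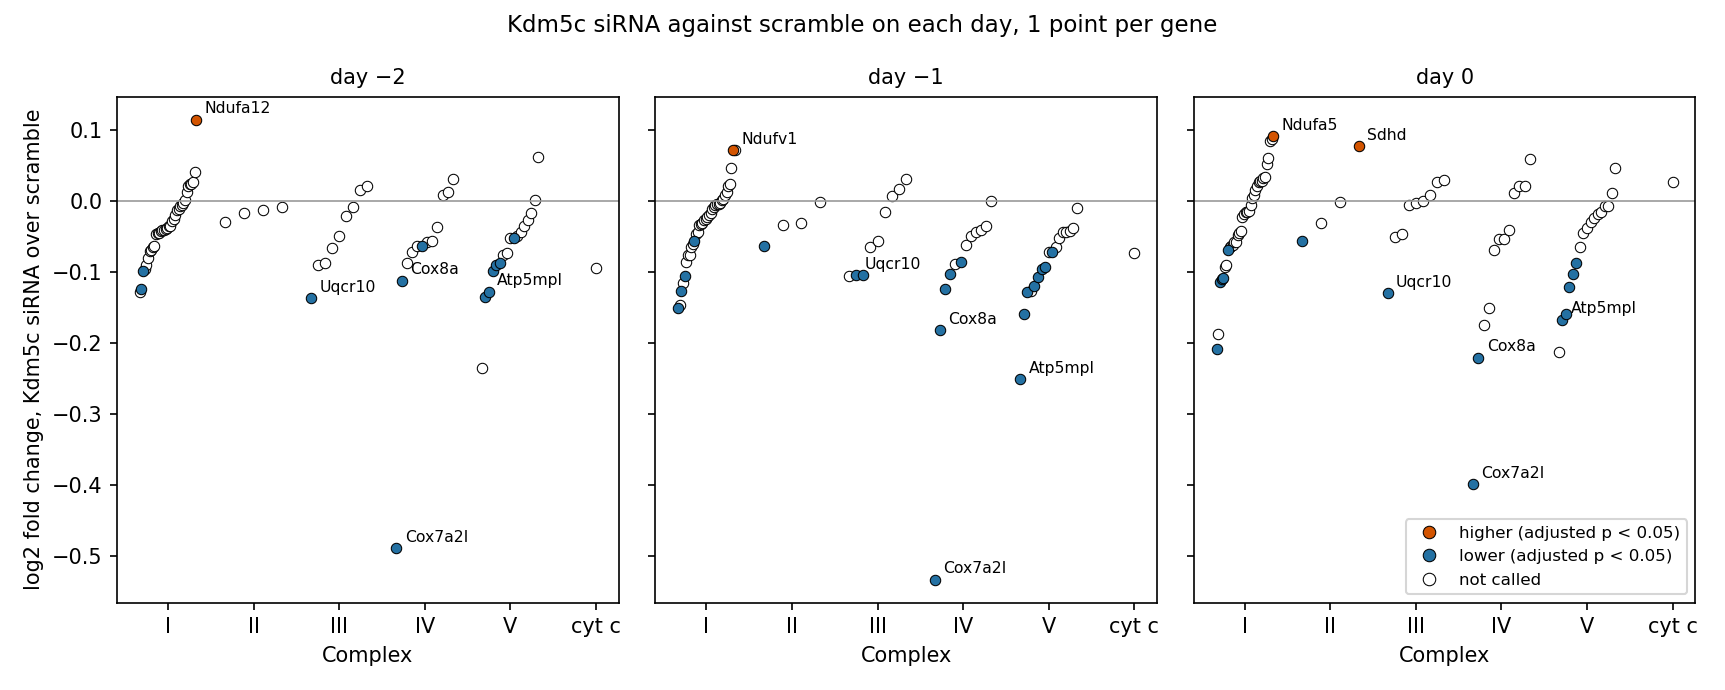
Log2 fold change of each member, Kdm5c siRNA over scramble, on days −2, −1 and 0, by complex and ordered by size within each; filled points passed the test at an adjusted p under 0.05. Cox7a2l lies lowest on each day (−0.49, −0.53 and −0.40), and 1, 1 and 2 points are called higher on the 3 days.

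Whether the effect of the siRNA changed with the day was tested as day 0 minus day −2. Of 79 members 1 was higher and 1 was lower, against 9.85% and 5.73% of all genes. Ndufa5 averaged 53.8 ± 1.82 and 39.9 ± 1.27 CPM on days −2 and 0 after Kdm5c siRNA, against 55.6 ± 0.90 and 37.5 ± 0.886 CPM after scramble (SD, n = 5 each). Its effect differed by 0.14 ± 0.04, adjusted p = 0.0281. Atp5g2, the ring gene that did not change with time, averaged 37.3 ± 0.720 and 34.7 ± 1.03 CPM after Kdm5c siRNA, against 35.9 ± 1.95 and 36.9 ± 0.671 CPM after scramble. Its effect differed by −0.15 ± 0.05, adjusted p = 0.0297. For Cox7a2l the effects on both days were not shown to differ (0.09 ± 0.05, adjusted p = 0.213).

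**Figure D4:**
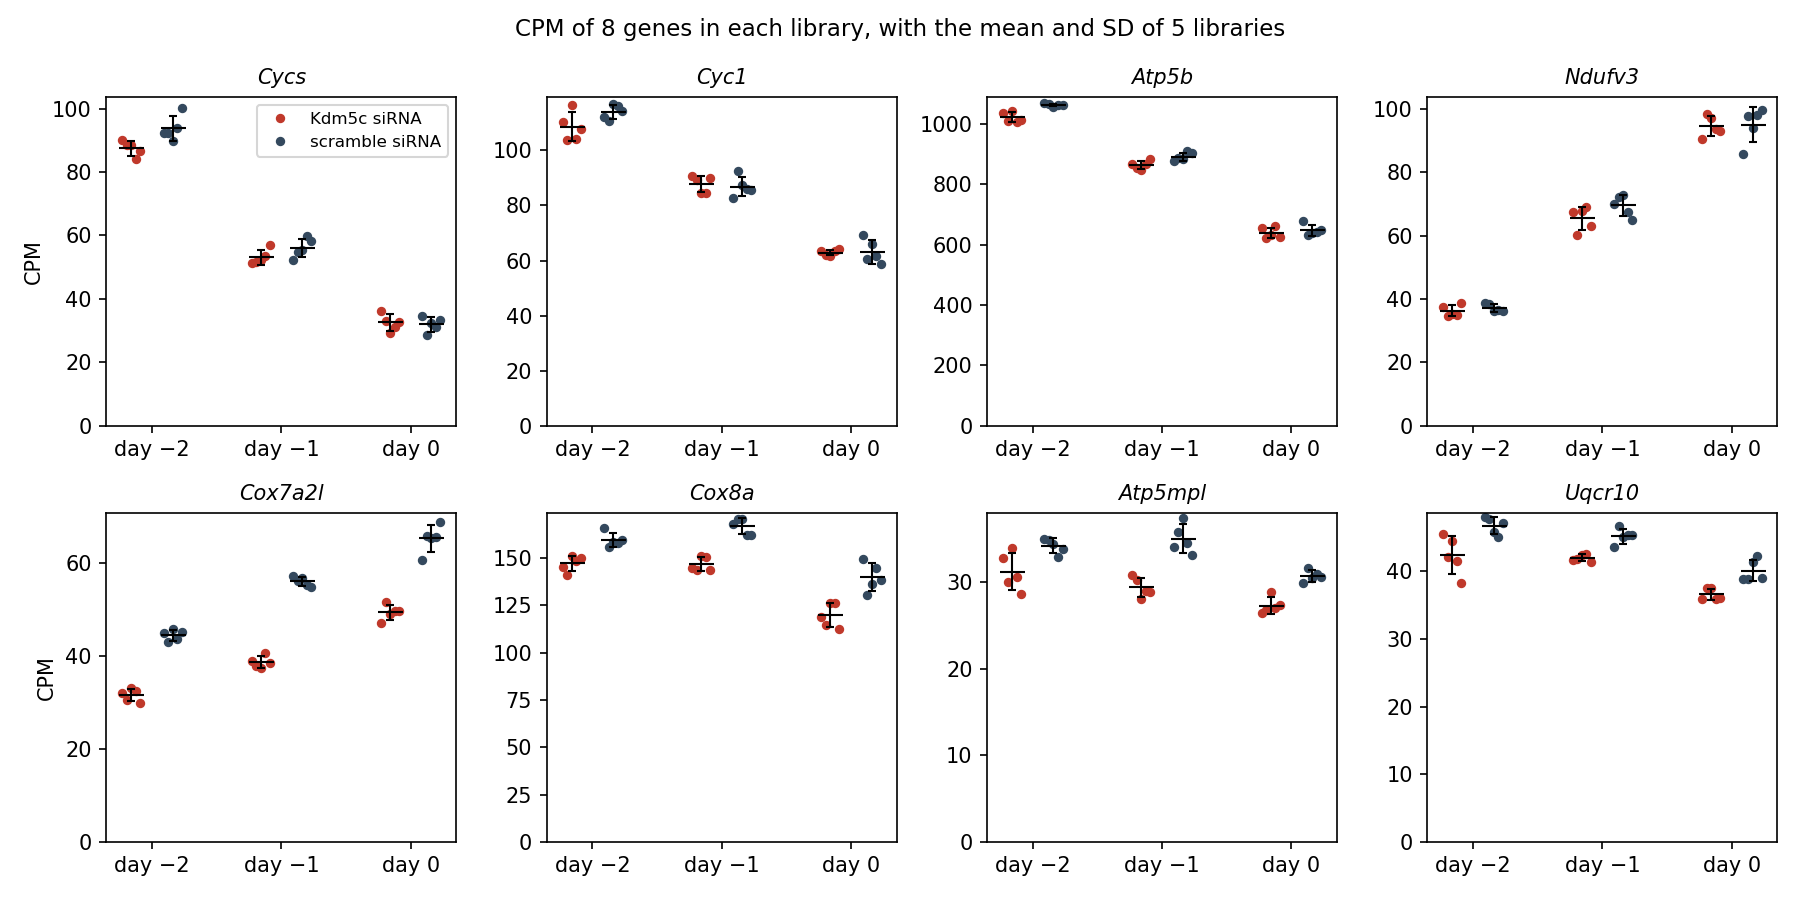
CPM of 8 members in every library by day, Kdm5c siRNA in red and scramble in dark blue; lines and bars are the mean and SD of 5 libraries. In Cycs, Cyc1, Atp5b and Ndufv3 the days stand apart and the siRNAs lie close or overlap, while in Cox7a2l the siRNAs stand apart on every day (31.6 against 44.5 CPM on day −2).

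Tissue-specific isoforms were close to absent. Cox4i2, Cox6b2, Cox7a1 and Ndufa4l2 averaged 0.034, 0.0183, 0.136 and 0.188 CPM over all libraries, against the 0.089 to 0.119 CPM that 3 reads are worth, and no read was counted for Cox8b or Cox8c. Cox6a2, the muscle isoform of Cox6a1, reached 1.17 CPM on day 0 after Kdm5c siRNA and 1.61 CPM after scramble, against 125 and 131 CPM for Cox6a1. The widely expressed isoforms Cox4i1, Cox6a1, Cox6b1, Cox7a2, Cox8a and Ndufa4 thus made up nearly all reads of their pairs.

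Genes that work beside the chain were read from the same fit. In scramble cells from day −2 to day 0, 68 of 77 mitochondrial ribosomal proteins fell and 3 rose (median log2 change −0.51), and 14 of 16 genes of protein import fell and 1 rose (median −0.84). Tomm40, the pore of the outer membrane, averaged 53.4 ± 5.58 CPM on day 0, against 134 ± 2.89 CPM on day −2 (SD, n = 5 each; −1.37), and Tomm70a and Timm50 changed by −1.18 and −1.10. Of 18 genes of the TCA cycle and pyruvate dehydrogenase 14 fell and 2 rose (median −0.36), with Idh3a at −1.11, Mdh2 at −0.73 and citrate synthase, Cs, at −0.64. Of 10 carriers and porins 8 fell and 2 rose (median −0.40), with the ADP/ATP carrier Slc25a5 at −1.07. The median of all genes was 0.00, with 43.6% of them called lower and 44.6% higher.

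Assembly factors were mixed in the same comparison, in which 43.6% of all genes were called lower and 44.6% higher. Of 15 for complex I 9 fell and 4 rose, with Ndufaf4 at −1.46 and Ndufaf3 at 0.92. Of 21 for complex IV 10 fell and 9 rose, near these shares of all genes. Cox10, an enzyme of heme A synthesis, was at −0.97 and the copper chaperone Cox17 at 0.95. For complexes II, III and V 2 of 4, 1 of 5 and 2 of 4 fell and 1, 1 and 0 rose, with Sdhaf1 at −0.67. Of 6 other genes that deliver electrons to ubiquinone 3 rose and 2 fell, with Dhodh of pyrimidine synthesis at −1.06.

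Of 13 subunits encoded in mitochondrial DNA 7 were in the count table. From day −2 to day 0 in scramble cells 3 rose and 2 fell, against 44.6% and 43.6% of all genes. The complex IV gene mt-Co1 was at 0.26 ± 0.02, adjusted p = 9.54e-13, mt-Nd5 at 0.30 and mt-Nd1 at −0.30. After Kdm5c siRNA 0, 4 and 5 of the 7 were lower on days −2, −1 and 0, and 1 was higher on day −2. Called lower on these days were 11.8, 16.8 and 15.7% of all genes, and called higher on day −2 were 11.2%. On day 0 mt-Co1 averaged 7599 ± 215 CPM after Kdm5c siRNA, against 8329 ± 265 CPM after scramble (SD, n = 5 each; −0.13 ± 0.02, adjusted p = 5.84e-05).

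Of 20 regulators of mitochondrial biogenesis 16 fell and 3 rose in scramble cells from day −2 to day 0 (median −0.32). Of all genes 43.6% fell and 44.6% rose. The coactivator gene Ppargc1a averaged 3.77 ± 0.471, 5.46 ± 0.292 and 10.4 ± 0.764 CPM on days −2, −1 and 0 (SD, n = 5 each) and rose by 1.43, while Nrf1, Tfam and Pprc1 fell by 0.47, 0.44 and 0.80. Esrra, which encodes the receptor ERR alpha, was lower after Kdm5c siRNA on all 3 days. It averaged 36.6 ± 1.43, 27.3 ± 0.731 and 26.1 ± 0.657 CPM on days −2, −1 and 0 after Kdm5c siRNA, against 45.5 ± 1.73, 36.2 ± 1.42 and 33.6 ± 1.12 CPM after scramble (SD, n = 5 each). The log2 differences were −0.31 ± 0.03, adjusted p = 2.39e-09 on day −2, −0.41 ± 0.04, adjusted p = 2.66e-12 on day −1 and −0.36 ± 0.04, adjusted p = 1.11e-10 on day 0. Ppargc1b, a PGC-1 coactivator with few reads, averaged 2.38 ± 0.306 CPM on day −1 after Kdm5c siRNA and 4.46 ± 0.624 CPM after scramble. It was lower on all 3 days (−0.39 ± 0.12, adjusted p = 0.0161, −0.91 ± 0.13, adjusted p = 6.52e-07 and −0.50 ± 0.12, adjusted p = 0.0016). These comparisons of the 3 days use different libraries, and within a day every gene shares the same scramble libraries.

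After Kdm5c siRNA 11.8, 16.8 and 15.7% of all genes were called lower and 11.2, 18.8 and 19.2% higher on days −2, −1 and 0, beside which the counts of these lists stand. In that order of days 9, 8 and 10 of 77 mitochondrial ribosomal proteins were lower and 0, 8 and 3 were higher. Of 18 genes of the TCA cycle 2, 4 and 3 were lower and 2, 1 and 0 were higher. Of 16 import genes 2, 2 and 2 were lower and 0, 0 and 1 were higher, with Tomm40 at −0.27 on day −2 and −0.19 on day −1. Of 10 carriers and porins 4, 5 and 3 were lower and Slc25a13 was higher each day. Of the assembly factors of complex IV 1, 4 and 5 of 21 were lower and 0, 3 and 1 were higher, and of those of complex I 0, 1 and 2 of 15 were lower and 0, 3 and 1 were higher. Assembly factors of complexes II, III and V had 1 call in all on day −2 (Sdhaf1, −0.28), 1 on day −1 (Uqcc2, 0.09) and 0 on day 0. Of 20 regulators of biogenesis 3, 3 and 2 were lower and 1, 3 and 1 were higher, and of 6 other entries to ubiquinone 1, 2 and 0 were lower and 0, 1 and 0 were higher.

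Outside the set, the genes whose mean levels over the 6 groups tracked the members' mean most closely were Ptma, Ptges2, Lysmd2, Hsd17b12 and Znhit2, with Pearson's r between 0.9999 and 0.9983. Such values rest on 6 group means that share the same days and are given as a description. Ptma averaged 633, 534 and 390 CPM on days −2, −1 and 0 after Kdm5c siRNA, against 714, 606 and 429 CPM after scramble.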

How the data were processed

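RNA of 3T3-L1 cells in 6 groups of 5 was made into libraries with a strand-specific NuGEN kit, per the labels' protocols. GRCm38, STAR 2.7.2a and edgeR 3.26.8 are named, with no role, per the submitters' processing notes. The read counter was not given in the sources used here, nor its strand setting. From these steps the authors deposited counts for 12016 genes and CPM for 55573 genes. The deposited CPM values were whole reads divided by library totals: 100.0% of nonzero values lay within 0.05 reads of a whole number, and all counts equalled these reads. The table named as normalized counts thus held raw counts, of genes at 1 CPM or above in at least 20 libraries. Totals were 25217905 to 33725717 reads, of which 99.73 to 99.8% fell in the count table. Of the 12016 identifiers 12010 were in GENCODE M21, used for names, coordinates and exon lengths.

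Counts were fitted with edgeR 4.0.16 (TMM scaling, robust quasi-likelihood, 6 group means, 24 residual degrees of freedom) in R 4.3.3. P-values, two-sided, were adjusted over all 12016 genes by Benjamini-Hochberg and called at 0.05, and errors of log2 values are standard errors. Alternatives included DESeq2 1.42.0 and limma 3.58.1. The members, lists, motifs and settings were chosen with earlier results of these data known. Members named with values were, in each siRNA comparison and in day 0 against day −2, up to 3 called members per complex and direction with the smallest adjusted p, the isoform pairs, complex II, Cyc1, Cycs, both members whose siRNA effect differed between days, Kdm5c, and 5 genes most like the members. Other members and the genes named from lists were chosen after their values were seen. Values of 1 member that the rule names are not reported here, and counts include it. Promoters came from RefSeq (GRCm38.p6) by symbol.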

Additional observations from a re-analysis of the deposited data

Results flagged for a closer look

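In groups of 5 libraries, the gap between the highest or lowest library and its nearest neighbour was divided by the range of the group. It passed 0.71, Dixon's 95% critical value, in 17 of 270 groups tested (45 quantities), and chance gives about 1 in 20. Among these, after Kdm5c siRNA, were Atp5g3 (0.827), Sdhb (0.826), Kdm5c itself (0.716) and the share of reads in complex II (0.714) on day −2, Sdhd (0.772) and Cox7b (0.756) on day −1, and Ndufa5 (0.775) and Ndufa6 (0.759) on day 0. After scramble they included Atp5a1 (0.733), Cox4i1 (0.725) and the share of reads in all members (0.795) on day −2, Sdhb (0.778) on day −1, and Atp5a1 (0.916), Cox7a2 (0.763), Sdhc (0.733) and Sdha (0.714) on day 0. For Atp5a1 on day 0 the library apart held 468.5 CPM, and the other 4 held 463.1 to 463.5 CPM.

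The effect of Kdm5c siRNA differed between day 0 and day −2 for Ndufa5, by 0.137 on the log2 scale, and for Atp5g2, by −0.149 (edgeR's quasi-likelihood test of the difference, adjusted p = 0.0281 and 0.0297). Ndufa5 lay higher after Kdm5c siRNA in all libraries of day 0, and Atp5g2 lay lower in all libraries of day 0.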

How the results depend on the processing

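Gene by gene the alternatives were followed for 59 results. These were the called members of the naming rule, up to 3 per complex and direction, and both of the difference between days. None of the 59 reversed. Of their 1272 values under the alternatives 1187 kept direction and call and 85 lost the call, and 41 results kept their call throughout. Calls of other members named in the text are not among these values. Small counts moved most. On day −1 the members higher were 0 without filter, with upper-quartile scaling and with the libraries of the contrast alone. The shares of all genes there were 6.4, 16.9 and 17.3%. Without scramble replicates 1, 2 and 3, a setting added after the data were seen, 0 were higher and 12 lower, against 10.6% and 10.7%. On day 0 the members higher were 1 with DESeq2 and 0 without filter or with the libraries of the contrast alone. All genes called higher there were 18.7, 6.4 and 16.4%. From day −2 to day −1 in scramble cells, members higher were 21 with library totals alone or with limma at either pseudocount (0.5 or 2), with 30 lower in each. Among all genes 46.6 to 46.8% were then higher and 32.2 to 32.3% lower. Without filter 8 members were higher, against 16.35% of 32318 genes. Members whose effect was higher on day 0 than on day −2 were 2 with the stricter filter (CPM of at least 5), DESeq2, library totals alone, limma at either pseudocount, the libraries of the contrast alone and upper-quartile scaling. With the replicate number as a block they were also 2. In these settings 9.6 to 10.9% of all genes were higher. Same-numbered libraries of different groups were unrelated (median r of deviations −0.015 over 75 pairs, range −0.307 to 0.299), so the numbers were not taken as pairs.

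Leaving out 1 library at a time gave 0 to 2 members higher and 7 to 17 lower on day −2 (7 without Kdm5c siRNA replicate 4), 0 to 1 higher on day −1, 0 to 2 higher on day 0, and 0 to 2 higher and 0 to 3 lower in the difference between days. Members higher on day −2 were 0 without Kdm5c siRNA replicate 2 and 2 without scramble replicate 1. On day −1 they were 0 without Kdm5c siRNA replicate 4 or 5 or scramble replicate 1, 4 or 5. On day 0 they were 1 without Kdm5c siRNA replicate 2 or 3 or scramble replicate 1, 3 or 5, and 0 without scramble replicate 4. Among the 59 results followed, some calls were lost in 4 or more settings. For day −2 they were Cox4i1 (11 settings, adjusted p up to 0.181) and Ndufa7 (8, up to 0.14). For day −1 they were Ndufv1 (9, up to 0.12), Uqcrfs1 (6, up to 0.364) and Sdha (4, up to 0.0849). For day 0 they were Sdha and Sdhd (9 each, up to 0.139 and 0.159) and Ndufa5 (5, up to 0.12). Sdhb lost its call from day −2 to day 0 (4, up to 0.302). In the difference between days Atp5g2 (8, up to 0.0702) and Ndufa5 (4, up to 0.133) lost theirs. The cause was not tested. At these depths 3 reads are worth 0.089 to 0.119 CPM, which limits the low isoforms; this covers counting error only.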

Other observations

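Some members varied more between libraries of a group than others. The SD within groups on the log2 scale was 0.168 for Atp5s, 0.166 for Ndufab1 and 0.165 for Cox5a, against a median of 0.0533 over the members. The 10 genes that moved most like Cox5a within groups, led by Trir (r = 0.967 over the 30 libraries), had exon GC contents of 54.6 to 68.2%, while Cox5a itself had 41.6% and the median gene 49.5%. These correlations are descriptions over libraries that share depth and preparation.

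Of the subunits encoded in mitochondrial DNA, mt-Nd3, mt-Nd4l, mt-Co2, mt-Co3, mt-Atp6 and mt-Atp8 averaged at most 0.107 CPM in scramble cells on day −2, against 6773 CPM for mt-Co1. Levels of these 6 genes are not used here.

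Ndufb1-ps, left out as a pseudogene by its symbol and annotated as a long noncoding RNA in GENCODE M21, averaged 19.4 RPKM over the 30 libraries. Per base of exon this was above the members Ndufb2, Ndufb4 and Ndufc1, at 1.77, 2.59 and 10.5 RPKM.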
